A study of Mus musculus with 30 samples.

Results

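The genes described here are 9 mouse genes of drug and steroid metabolism, *Cyp2b10*, *Cyp3a11*, *Cyp2c29*, *Cyp2c37*, *Cyp2c55*, *Cyp2a5*, *Ces2a*, *Sult2a7* and *Abcc2*, out of 26253 genes listed for each library. All 9 were found in the gene tables by symbol. They were chosen as known targets of the nuclear receptors CAR and PXR whose reads, scaled to *Alb* reads, stood high in aortas of mice given an androgen receptor antagonist. Wherever these aortas are set against other VEDS aortas, the values of the 9 genes are therefore a description: no p is given, and counts of genes called in a fit restate the choice.

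Bulk RNA-seq was made from the descending thoracic aorta of male mice on a C57BL/6J background, perfused with PBS and cleaned of perivascular fat. VEDS mice (*Col3a1* G938D/+) carry a heterozygous glycine substitution in type III collagen and model vascular Ehlers-Danlos syndrome, and control mice are *Col3a1*+/+. The hydralazine/bicalutamide group (HB, 3 VEDS libraries) and the hydralazine/spironolactone group (HS, 3 VEDS libraries) received hydralazine, a vasodilator, at 32 mg/kg/day in water from birth, and from day 21 chow with bicalutamide at 50 mg/kg/day or spironolactone at 100 mg/kg/day. Bicalutamide blocks the androgen receptor, and spironolactone blocks both the androgen and the mineralocorticoid receptor. All HB and HS aortas were taken at day 60. The other groups were VEDS given the same hydralazine alone (6 libraries), untreated VEDS (6), control given hydralazine (6) and untreated control (6). Each of these 4 groups mixed day 30 and day 60 aortas, and the age of a single library was not given. Age and treatment with an antagonist can therefore not be told apart within a group comparison.

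CAR (*Nr1i3*) and PXR (*Nr1i2*) are nuclear receptors that sense drugs, bile acids and steroids, pair with RXRα, and bind DNA repeats of AGGTCA-like half-sites near genes for drug clearance. In mouse liver, *Cyp2b10* is the classical CAR target and *Cyp3a11* the classical PXR target, and other targets cover hydrolysis, conjugation and export. These genes are liver genes foremost, with some members also active in gut, lung or kidney, and the smooth muscle of the aorta is not known as a main site for them.

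The 250 bases upstream of the annotated start are shown for *Cyp2b10* and *Cyp3a11*, the classical CAR and PXR targets, and for *Cyp2c55*, the member whose reads per *Alb* read stood highest over the other VEDS aortas among the 8 members with a fold. They were taken 5′ to 3′ from RefSeq on build GRCm38.p6, which is not the mm39 build of the gene tables. Capitals mark the half-sites AGGTCA and AGTTCA, searched on both strands without overlap between them. *Cyp2b10* is at chr7:25897408-25897657 on the plus strand, *Cyp3a11* at chr5:145879855-145880104 on the minus strand, and *Cyp2c55* at chr19:39006769-39007018 on the plus strand.
Cyp2b10: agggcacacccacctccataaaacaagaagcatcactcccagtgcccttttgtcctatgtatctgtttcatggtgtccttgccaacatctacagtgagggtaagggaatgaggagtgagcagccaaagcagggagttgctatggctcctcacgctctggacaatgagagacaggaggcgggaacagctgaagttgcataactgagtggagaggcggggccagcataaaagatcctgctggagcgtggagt
Cyp3a11: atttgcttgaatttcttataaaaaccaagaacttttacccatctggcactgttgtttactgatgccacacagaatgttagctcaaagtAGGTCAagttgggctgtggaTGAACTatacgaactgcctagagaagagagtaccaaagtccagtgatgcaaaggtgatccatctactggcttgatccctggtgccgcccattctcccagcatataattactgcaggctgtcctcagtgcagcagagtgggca
Cyp2c55: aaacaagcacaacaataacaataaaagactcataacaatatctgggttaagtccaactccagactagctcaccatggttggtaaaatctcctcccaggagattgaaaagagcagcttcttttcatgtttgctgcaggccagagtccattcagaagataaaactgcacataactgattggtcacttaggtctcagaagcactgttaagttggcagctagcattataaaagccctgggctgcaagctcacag
The *Cyp3a11* window held AGGTCA from −162 to −157 and, on the opposite strand, AGTTCA from −142 to −137, counted from the start. *Cyp2b10* and *Cyp2c55* had neither in this window, and sites further upstream were not searched. RefSeq promoters were matched for 8 of the 9 members, *Sult2a7* having no entry, and 4 of the 8 held at least 1 half-site (*Cyp3a11*, *Cyp2c29*, *Ces2a* and *Abcc2*). Of all 32851 promoters of the same length 24.2% held one, AGGTCA being in 14% and AGTTCA in 11.8%. These matches describe letters and are not binding data.

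The libraries held between 5517510 and 8293289 expected counts, and between 15854 and 16486 genes had a count. Smooth muscle markers were high throughout, with *Myh11* between 5230 and 10600 CPM (counts scaled to the library total adjusted by TMM factors). Transcripts of hepatocytes were found as well: a list of 15 hepatocyte genes, all 15 of them counted, summed to 912 to 1270 CPM in HB aortas and 252 to 2940 CPM in HS aortas, against 158 to 22200 CPM in the 12 other VEDS aortas. *Alb*, the albumin gene, had 2455 to 3266 counts in HB and 842 to 7367 counts in HS, against 330 to 77220 counts in the other VEDS libraries. In such bulk samples, fewer cells of a type and less RNA per cell cannot be told apart. A set of 3 libraries stood apart and are left out where stated: HB replicate 2, with cardiomyocyte markers summing to 566 CPM, against at most 29.3 CPM in the other VEDS libraries without an antagonist (a hydralazine control library, not part of these comparisons, reached 580 CPM), and HS replicate 3 and untreated VEDS replicate 1, with the fewest *Alb* counts of all 30 libraries. The member genes are therefore given as counts per 1000 *Alb* counts beside CPM.

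Per unit of transcript length, measured as TPM, *Cyp3a11* was the highest member in HB aortas at 126 ± 3.34 TPM (SD, n = 3) and *Abcc2* the lowest at 1.18 TPM. The order between them in HB was *Cyp2c29* at 35.1 TPM, *Ces2a* at 12.2, *Cyp2a5* at 11.8, *Cyp2b10* at 4.71, *Cyp2c37* at 3.46, *Cyp2c55* at 2.78 and *Sult2a7* at 2.55 TPM. *Ces2a* and *Cyp2a5* did not differ beyond their spread, nor did neighbours from *Cyp2b10* to *Sult2a7*. HS aortas averaged 126 ± 124 TPM for *Cyp3a11* and 2.48 ± 0.673 TPM for *Cyp2b10* (SD, n = 3). In the 12 other VEDS aortas *Cyp3a11* was also the highest, at 77.5 ± 77.5 TPM (SD, n = 12), but *Cyp2b10* averaged 0.979 TPM, *Cyp2c55* 0.347 TPM and *Sult2a7* 0.0108 TPM, all below *Abcc2* at 3.44 TPM. *Alb* itself averaged 155 TPM in HB, against 1310 TPM in the other VEDS aortas.

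The first question was how the 9 genes stood in the aortas given an antagonist beside hydralazine. Scaled to *Alb*, all 8 members with a fold had higher medians in both HB and HS aortas than in the other VEDS aortas, between 2.52-fold for *Abcc2* and 89.7-fold for *Cyp2c55* in HB. *Sult2a7*, the ninth, was almost unread outside these groups. Genes outside the members also had higher medians on this scale, such as the smooth muscle gene *Myh11*. Its median was 21800 per 1000 *Alb* counts in HB and 19500 in HS, against 4480 in the other VEDS aortas. As CPM only *Cyp2b10*, *Cyp2c55* and *Sult2a7* of the 9 members lay above every other VEDS library in all HB aortas, beside 1.74% of 13811 genes. HB and HS are set against the same 12 libraries, so their values are given side by side and are not independent.

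*Cyp2b10* encodes a cytochrome P450 that oxidises many drugs and steroids. It had 70, 95 and 73 counts in HB and 52, 30 and 81 counts in HS, against 5 to 51 counts in hydralazine VEDS and 4 to 18 counts in untreated VEDS. As CPM it stood at 11.9, 15.8 and 10.1 in HB and 7.84, 4.83 and 10.8 in HS, against at most 7.46 in hydralazine VEDS and 2.55 in untreated VEDS. Every HB library was thus above every other VEDS library, whereas HS replicate 2 lay below 2 hydralazine VEDS libraries. The ratio of median CPM was 8.26 for HB and 5.45 for HS. Per 1000 *Alb* counts *Cyp2b10* reached 21.4, 38.7 and 23.7 in HB and 7.06, 11.0 and 96.2 in HS, against medians of 0.793 in hydralazine VEDS and 0.748 in untreated VEDS. The highest untreated VEDS value, 12.1, was replicate 1, where it rested on 4 *Cyp2b10* and 330 *Alb* counts. HS replicate 3 held the fewest *Alb* counts of the HS aortas (842) yet the most *Cyp2b10* counts (81), so *Cyp2b10* did not follow *Alb* within HS.

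Club cells of the lung airway also express *Cyp2b10* in mouse, so their markers were read beside it. *Scgb1a1*, the secretoglobin that defines these cells, had 0, 4 and 8 counts in HB and 14, 11 and 62 counts in HS, against 0 to 19 counts in the other VEDS libraries. With *Scgb3a1* and *Scgb3a2* added, the secretoglobins summed to 1 to 15 counts in HB and 12 to 90 counts in HS, against 0 to 36 counts in the other VEDS libraries. HS replicate 3, with the most *Cyp2b10* counts of the HS aortas, also held the most counts of each of the 3 secretoglobins among the HB and HS libraries. All 5 club cell markers summed to 81.8 to 96.8 CPM in HB and 61.8 to 176 CPM in HS, against 29.0 to 255 CPM in the other VEDS aortas, a sum made up mostly of *Aldh1a1* and *Cyp2f2*, which liver also expresses. The part of such transcripts in the *Cyp2b10* counts was not tested. Markers of alveolar type 2 cells summed to at most 0.166 CPM in HB and 0.399 CPM in HS. Of 7 enterocyte markers, *Alpi*, *Sis* and *Cdx1* were at 0 in every HB and HS library, while *Fabp2*, *Vil1*, *Apoa4* and *Lct* had counts, and the 7 summed to 1.66 to 4.07 CPM in HB and 1.86 to 12.8 CPM in HS, against 1.29 to 28.7 CPM in the other VEDS aortas. Of 5 kidney tubule markers, *Umod*, *Slc34a1*, *Slc12a1* and *Kap* were at 0, while *Lrp2* had 5, 12 and 94 counts in HB and 27, 9 and 7 counts in HS, against 2 to 40 counts in the other VEDS libraries.

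*Cyp3a11* encodes the main CYP3A enzyme of mouse liver, which oxidises many drugs and hydroxylates steroids. It had 2371, 2204 and 2523 counts in HB and 5604, 1930 and 462 counts in HS, against 368 to 3296 counts in hydralazine VEDS and 14 to 5085 counts in untreated VEDS. The CPM ranges overlapped, at 351 to 402 in HB and 61.4 to 845 in HS, against 2.01 to 719 over the other VEDS aortas. Relative to *Alb* they did not: *Cyp3a11* stood at 726, 898 and 819 counts per 1000 *Alb* counts in HB and 761, 706 and 549 in HS, against 44.8 to 72.1 in hydralazine VEDS and 42.4 to 83.3 in untreated VEDS. The ratio of medians was 14.7 in HB and 12.7 in HS. Among the 24 libraries without an antagonist *Cyp3a11* kept to 19.7 to 83.3 per 1000 *Alb* counts while its CPM spanned 2.01 to 719.

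**Figure D1:**
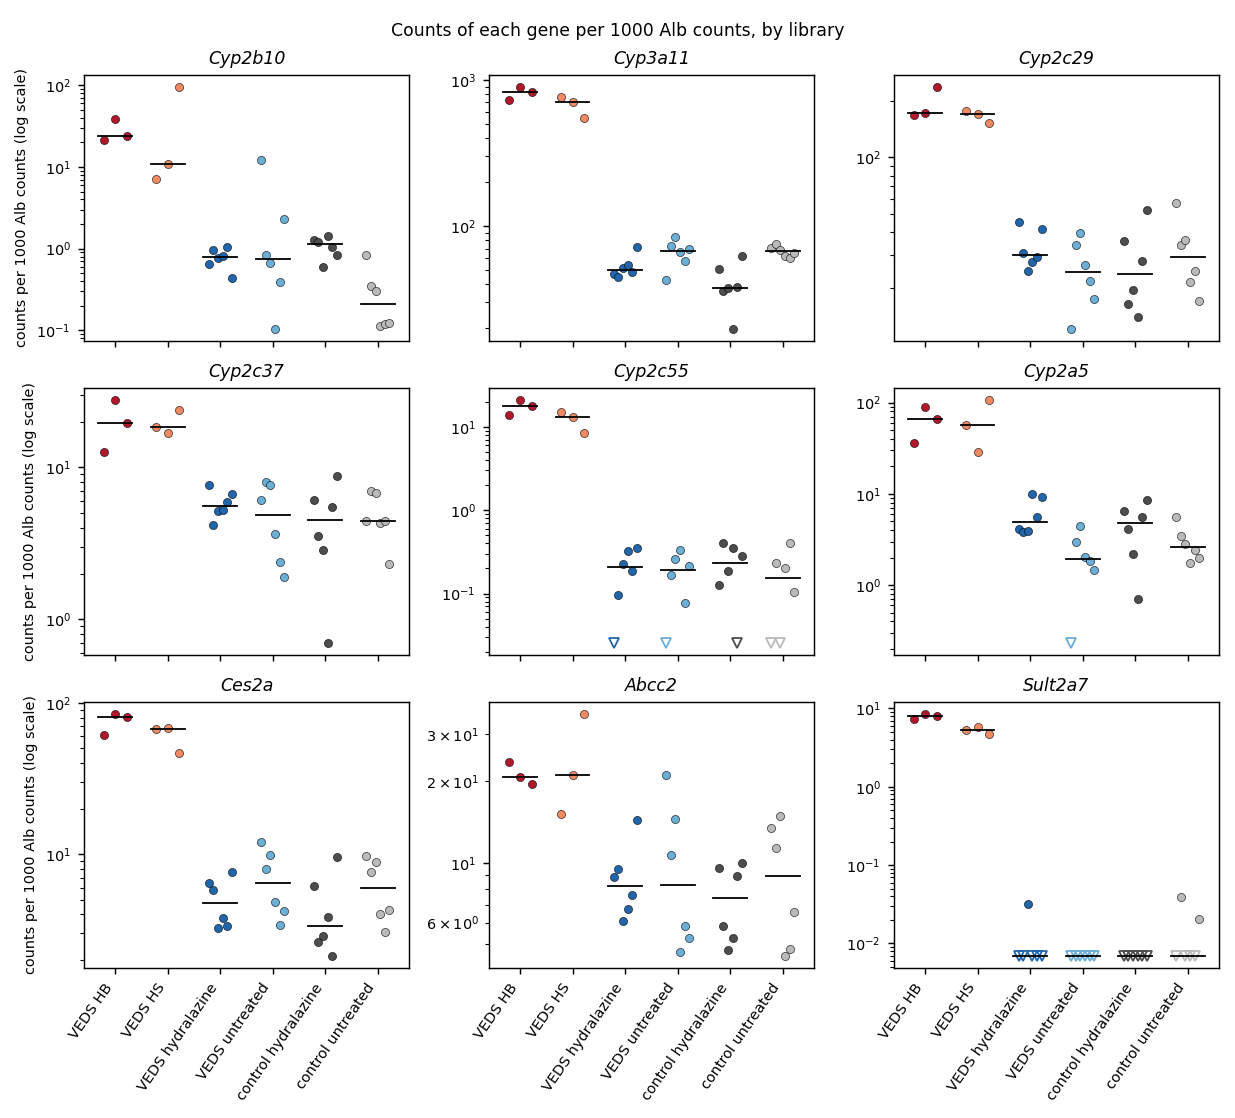
Counts of each of the 9 genes per 1000 *Alb* counts (log axis) in each library by group, with HB and HS first, then hydralazine VEDS, untreated VEDS and the control groups; points are libraries, open triangles mark libraries with 0 counts and lines mark medians. For *Cyp3a11* the HB and HS libraries sit between 549 and 898, and the other VEDS libraries between 42.4 and 83.3.

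The 3 *Cyp2c* members encode P450 enzymes of drug and fatty acid oxidation. *Cyp2c55*, of which mouse colon is a known site beside induced liver, had 45, 51 and 55 counts in HB and 110, 36 and 7 counts in HS. The other VEDS libraries had 0 to 20 counts under hydralazine and 0 to 26 counts untreated. Per 1000 *Alb* counts this was 13.8, 20.8 and 17.9 in HB and 14.9, 13.2 and 8.31 in HS, against at most 0.353 in hydralazine VEDS and 0.337 in untreated VEDS, with no overlap. The ratio of medians was 89.7 for HB and 66.2 for HS, and by CPM 22.3 for HB and 16.9 for HS. These ratios rest on a median of 2.5 counts in the other VEDS libraries. With counts pooled per total counts the ratio was 7.98 in HB (95% exact interval 6.03 to 10.6) and 7.5 in HS (5.67 to 10.0), counting error only. By CPM HS replicate 3, at 0.931, lay below the highest other VEDS library, at 3.67. *Cyp2c29* spanned 152 to 239 per 1000 *Alb* counts over HB and HS, against 12.1 to 45.4 over the other VEDS libraries (ratio of medians 6.09 in HB and 6.01 in HS). By CPM *Cyp2c29* overlapped, at 70.7 to 102 in HB and 17.0 to 198 in HS, against 0.575 to 291 in the other VEDS libraries. *Cyp2c37* spanned 12.6 to 27.7 over HB and HS, against 1.90 to 8.01 over the other VEDS libraries (3.52 in HB and 3.33 in HS). By CPM the median of *Cyp2c37* was 0.875 of that of the other VEDS aortas in HB and 0.777 in HS, so its ratio to them depended on the scale. *Cyp2c37* counts were whole numbers in 25 of 30 libraries, so some reads were shared with *Cyp2c* relatives and its level is uncertain to that extent.

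*Cyp2a5*, whose enzyme hydroxylates coumarin and oxidises nicotine in mouse, had 117.93, 217.99 and 205 expected counts in HB and 423, 79 and 88.99 in HS. Per 1000 *Alb* counts it stood at 36.1, 88.8 and 66.6 in HB and 57.4, 28.9 and 106 in HS, against 3.86 to 9.91 in hydralazine VEDS and 0 to 4.45 in untreated VEDS. Here too the HB and HS libraries were above every other VEDS library, with ratios of medians of 17.1 in HB and 14.7 in HS. By CPM they overlapped: *Cyp2a5* averaged 28.3 ± 8.11 in HB and 29.4 ± 29.7 in HS (SD, n = 3 each), against 18.4 ± 25.2 in the other VEDS aortas (SD, n = 12), with a highest value of 90.4. Its counts were whole in only 14 of 30 libraries, which is the mark of reads divided with near-identical genes such as *Cyp2a4*, and its level is uncertain to that extent. The hydrolase gene *Ces2a*, a carboxylesterase that cleaves ester drugs, spanned 46.3 to 84.7 per 1000 *Alb* counts over HB and HS, against 3.23 to 7.60 in hydralazine VEDS and 3.41 to 12.1 in untreated VEDS. Its ratio of medians was 15.3 in HB and 12.6 in HS. By CPM it stood at 33.9 to 34.8 in HB and 5.19 to 74.6 in HS, against 0.575 to 53.0 in the other VEDS libraries, again with overlap.

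*Sult2a7* belongs to the SULT2A sulfotransferases, which conjugate steroids and bile acids. It had 24, 21 and 25 counts in HB and 39, 16 and 4 counts in HS. The 12 other VEDS libraries held 1 count in all, in hydralazine VEDS replicate 3, and the 12 control libraries held 2 counts, both untreated. All 6 HB and HS libraries therefore lay above all 24 libraries without an antagonist, on either scale. Per total counts the ratio to the other VEDS aortas was 285 in HB (95% exact interval 49.5 to 11400) and 223 in HS (38.5 to 8950), where the intervals cover counting error only. Over all 24 libraries without an antagonist the HB ratio was 192 (63.0 to 953). Per 1000 *Alb* counts it stood at 7.35, 8.55 and 8.12 in HB and 5.29, 5.86 and 4.75 in HS.

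*Abcc2* encodes the canalicular pump MRP2, which exports conjugated drugs and bilirubin into bile. It was the member that differed least per *Alb* count, though not by CPM. It had 77, 51 and 60 counts in HB and 111, 58 and 30 counts in HS. Per 1000 *Alb* counts it spanned 15.1 to 35.6 over HB and HS, against 6.07 to 14.4 in hydralazine VEDS and 4.69 to 21.2 in untreated VEDS. The overlap came from untreated VEDS replicate 1, which held 7 *Abcc2* counts. By CPM its median was 0.447 of that of the other VEDS aortas in HB and 0.492 in HS, so, as for *Cyp2c37*, the side on which it lay turned with the scale.

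Counted over the genes, 8 of 9 members lay above all other VEDS libraries per *Alb* count in HB, all but *Abcc2*, beside 0.615% of 13811 genes, and 7 of 9 did in HS, all but *Abcc2* and *Cyp2b10*, beside 0.471%. By CPM this was 3 of 9 in HB, beside 1.74%, and 1 of 9 in HS (*Sult2a7*), beside 0.956%. With the summed counts of the hepatocyte list in place of *Alb* it was 9 of 9 in HB, beside 0.76%, and 7 of 9 in HS, beside 0.478%. Because the members were chosen on this contrast, nothing is read from these shares. Without untreated VEDS replicate 1 all 9 members lay above the remaining 11 libraries in both groups, but so did 80.2% of all genes in HB and 5.68% in HS. *Myh11*, a smooth muscle gene, spanned 6450 to 71000 per 1000 *Alb* counts over HB and HS, against 613 to 224000 over the libraries without an antagonist.

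**Figure D2:**
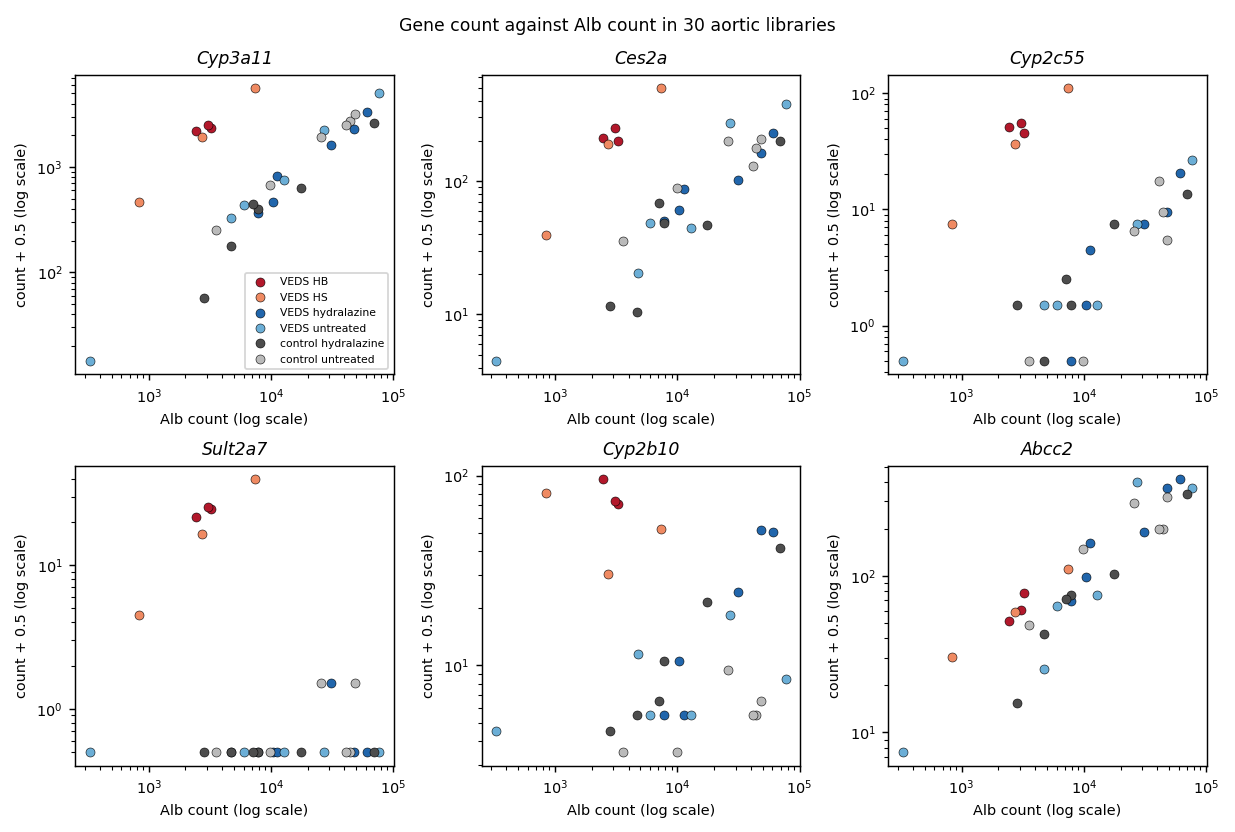
Count of each of 6 members plus 0.5 against the *Alb* count of the same library, both on log axes, with 1 point per library and colours by group. The HB and HS libraries lie above the band of the other libraries for *Cyp3a11*, *Ces2a*, *Cyp2c55* and *Sult2a7* and near its upper edge for *Abcc2*, and *Cyp2b10* has 30 to 95 counts in HB and HS, against up to 51 in the other VEDS libraries.

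Other hepatocyte transcripts were the nearest comparison within these aortas. The 14 hepatocyte genes other than *Alb* had a median ratio per *Alb* count of 1.29 in HB (from 0.884 to 2.06 across genes) and 1.25 in HS (from 1.01 to 2.15), beside 2.52 to 89.7 in HB and 2.58 to 66.2 in HS for the 8 members with a fold. By CPM the same 14 genes had a median ratio of 0.322 in HB and 0.294 in HS. The lowest member ratio per *Alb* count, that of *Abcc2*, was thus above the highest of the 14 in both groups. The genes on both sides were read from the same libraries and share the same *Alb* counts. This is a description, as the members were chosen for it. Genes outside the members and the hepatocyte list also had higher medians per 1000 *Alb* counts. *Myh11* stood at 21800 in HB and 19500 in HS, against 4480 in the other VEDS aortas. *Rxra* stood at 217 and 196, against 46.8, and *Por* at 161 and 109, against 24.6. A higher median per *Alb* count was thus not particular to the members.

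**Figure D3:**
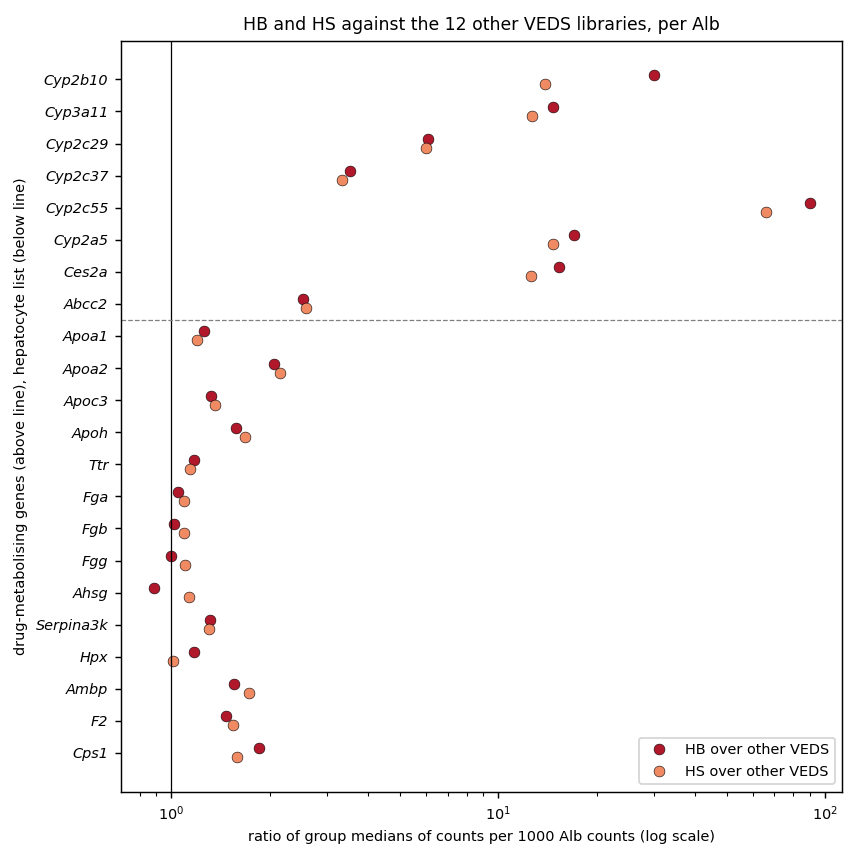
Ratio of the median count per 1000 *Alb* counts, in HB and in HS over the 12 other VEDS libraries (log axis), for 8 members and for 14 hepatocyte genes other than *Alb*. The members span 2.52 to 89.7 in HB and 2.58 to 66.2 in HS, and the hepatocyte genes 0.884 to 2.06 in HB and 1.01 to 2.15 in HS.

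Fitted across all genes with edgeR's quasi-likelihood test, with no covariate, 2 of 9 members were called in HB, *Cyp2b10* (log2 fold change 2.53 ± 0.50, SE) and *Sult2a7*, beside 0.599% of 13530 genes. In HS none of the 8 members kept by the filter was called, beside 0.0295% of 13575 genes, nor with DESeq2. DESeq2 called *Cyp2b10* but not *Sult2a7* in HB. As the genes were chosen on this contrast, these calls restate the choice and nothing is read from them. The member log2 fold changes had a median of 0.89 in HB and 0.92 in HS, with *Cyp2c55* at 3.02 ± 0.70 in HB and 2.99 ± 0.81 in HS. *Cyp3a11* stood at 0.77 ± 0.87 in HB and 0.89 ± 0.95 in HS, and *Abcc2* at −1.44 ± 0.85 in HB and −1.44 ± 0.88 in HS. Without the 3 libraries that stood apart *Sult2a7* alone was called, in HB and, where it was then kept, in HS. Against hydralazine VEDS alone, which differs from HB and HS by the antagonist and by the mix of ages, 1 of 9 members was called in HB, *Sult2a7*, beside 0.0151% of genes, and no member in HS, beside 0% of 13304 genes (1805 genes at an unadjusted p under 0.05, and 54 genes with DESeq2). *Cyp2b10* stood at 1.78 ± 0.59 and *Cyp2c55* at 2.92 ± 0.60 in that comparison for HB.

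With the log2 summed CPM of the hepatocyte list as a covariate, 7 of 9 members were called in HB and 5 of 8 in HS, beside 0.362% of genes in HB and 0.302% in HS. The uncalled members in HB were *Cyp2c37* (1.72 ± 0.39) and *Abcc2* (0.85 ± 0.34). In HS *Cyp2b10* (2.59 ± 0.63) joined them. The largest log2 fold changes apart from *Sult2a7* were those of *Cyp2c55*, 6.98 ± 0.45 in HB and 6.13 ± 0.36 in HS, and *Cyp3a11* stood at 3.80 ± 0.16 in HB and 3.47 ± 0.15 in HS. The median over members was 3.72 in HB and 2.87 in HS. Against hydralazine VEDS alone 6 of 9 were called in HB, beside 0.317%, and 4 of 8 in HS (*Cyp3a11*, *Cyp2c29*, *Cyp2c55* and *Ces2a*), beside 0.135%. These calls restate the contrast on which the genes were chosen.

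The other genes of the CAR and PXR pathway were read from a list of 66 relatives, partners and further targets that did not include the members. The list was chosen with earlier results of these data known. With the hepatocyte covariate 12 of 52 measured genes rose in HB and none fell (edgeR, adjusted over all genes), beside 0.362% of all genes called. Of the 52, 48 had a positive log2 fold change, with a median of 0.68 beside about 0 for all genes. In HS 7 of 51 rose and none fell, beside 0.302% of all genes called, with a median of 0.44. All genes are not a background of liver genes, and the hepatocyte list defines the covariate. The medians were therefore not set against a like set, and nothing about the pathway as a whole is read from them. By role, the 12 in HB were 5 of 15 oxidation and hydrolysis genes, 5 of 20 conjugation genes and 2 of 6 transporters, with 0 of 7 receptors and cofactors and 0 of 4 genes known to be repressed. Without the covariate the picture differed: *Gsta1* alone rose in HB (3.55 ± 0.54, edgeR adjusted p = 0.0202), beside 0.599% of all genes called. No gene of the list passed in HS, beside 0.0295%, and the list medians were −0.85 in HB and −0.81 in HS. No gene of the list passed in either group without the covariate when the 3 libraries that stood apart were left out, where *Gsta1* stood at 3.53 ± 0.66 in HB (edgeR adjusted p = 0.0759).

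Among the conjugation genes, *Gstm3*, a glutathione S-transferase, showed the largest difference in both groups, at a log2 fold change of 5.74 ± 0.52 in HB (edgeR with the covariate, adjusted p = 1.84e-05) and 5.24 ± 0.36 in HS (adjusted p = 5.93e-07). Its level was 40.1 ± 13.7 CPM in HB and 40.9 ± 46.3 CPM in HS (SD, n = 3 each), against 9.09 ± 10.5 CPM in the other VEDS aortas (SD, n = 12). The CPM ranges overlapped, at 25.1 to 51.9 in HB and 3.46 to 92.6 in HS, against 0 to 30.9. Without the covariate *Gstm3* did not pass in either group. *Gsta1*, another glutathione S-transferase, rose in HB by 4.64 ± 0.68 (adjusted p = 0.0037) but was read at only 51.58 expected counts over the 3 HB libraries. The glucuronosyltransferase *Ugt2b34* rose by 1.74 ± 0.27 in HB and 1.49 ± 0.22 in HS, and *Ugt1a9* (1.70 ± 0.27) and *Ugt1a1* (1.60 ± 0.27) rose in HB. These rises were relative to the hepatocyte score: by CPM all 3 averaged lower in HB than in the other VEDS groups, as for *Ugt2b34* at 13.8 ± 1.82 in HB (SD, n = 3), against 30.4 ± 23.3 in hydralazine VEDS and 25.3 ± 29.1 in untreated VEDS (SD, n = 6 each), and without the covariate its log2 fold change in HB was −1.01 ± 0.90, which did not pass. Genes that share exons at the *Ugt1a* locus divide reads, so these values are uncertain.

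Among the oxidation genes *Cyp3a59* rose by 4.87 ± 0.65 in HB (edgeR with the covariate, adjusted p = 0.00158) and 4.17 ± 0.52 in HS (adjusted p = 0.0013), and *Cyp3a25* by 2.09 ± 0.33 in HB and 1.76 ± 0.28 in HS. *Cyp2c54* rose by 2.10 ± 0.22 in HB and 1.47 ± 0.22 in HS, and *Cyp2c50* by 1.91 ± 0.20 in HB and 1.29 ± 0.19 in HS. For *Cyp3a25*, *Cyp2c54* and *Cyp2c50* the direction turned without the covariate, to −0.82 ± 0.90, −0.54 ± 0.82 and −0.83 ± 0.88 in HB and to −0.69 ± 0.97, −0.81 ± 0.93 and −1.02 ± 1.00 in HS, none of which passed. *Cyp2c50*, for example, averaged 29.9 ± 1.52 CPM in HB and 26.4 ± 28.8 CPM in HS (SD, n = 3 each), against 63.1 ± 48.0 CPM in hydralazine VEDS and 44.1 ± 51.9 CPM in untreated VEDS (SD, n = 6 each). These are close relatives of *Cyp3a11*, *Cyp2c29* and *Cyp2c37*, and reads shared with those members were not separated. The organic anion uptake transporter *Slco1a4* rose by 3.20 ± 0.46 in HB (adjusted p = 0.00326) and 2.67 ± 0.44 in HS (adjusted p = 0.0126). The rises of *Cyp3a59* and *Slco1a4* were relative to the hepatocyte score, and by CPM both overlapped. *Cyp3a59* averaged 4.56 ± 1.86 CPM in HB and 5.94 ± 6.09 in HS, against 4.29 ± 5.35 in the other VEDS aortas (SD, n = 12). *Slco1a4* averaged 5.29 ± 0.642 CPM in HB and 5.33 ± 4.27 in HS, against 6.62 ± 6.35 in hydralazine VEDS and 2.98 ± 3.12 in untreated VEDS. Against hydralazine VEDS alone, with the covariate, 9 genes of the list rose in HB, beside 0.317% of all genes called, and 5 in HS, beside 0.135%. The 5 in HS were *Gstm3*, *Cyp3a59*, *Cyp3a25*, *Ugt2b34* and *Aldh1a1*, a retinal dehydrogenase.

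**Figure D4:**
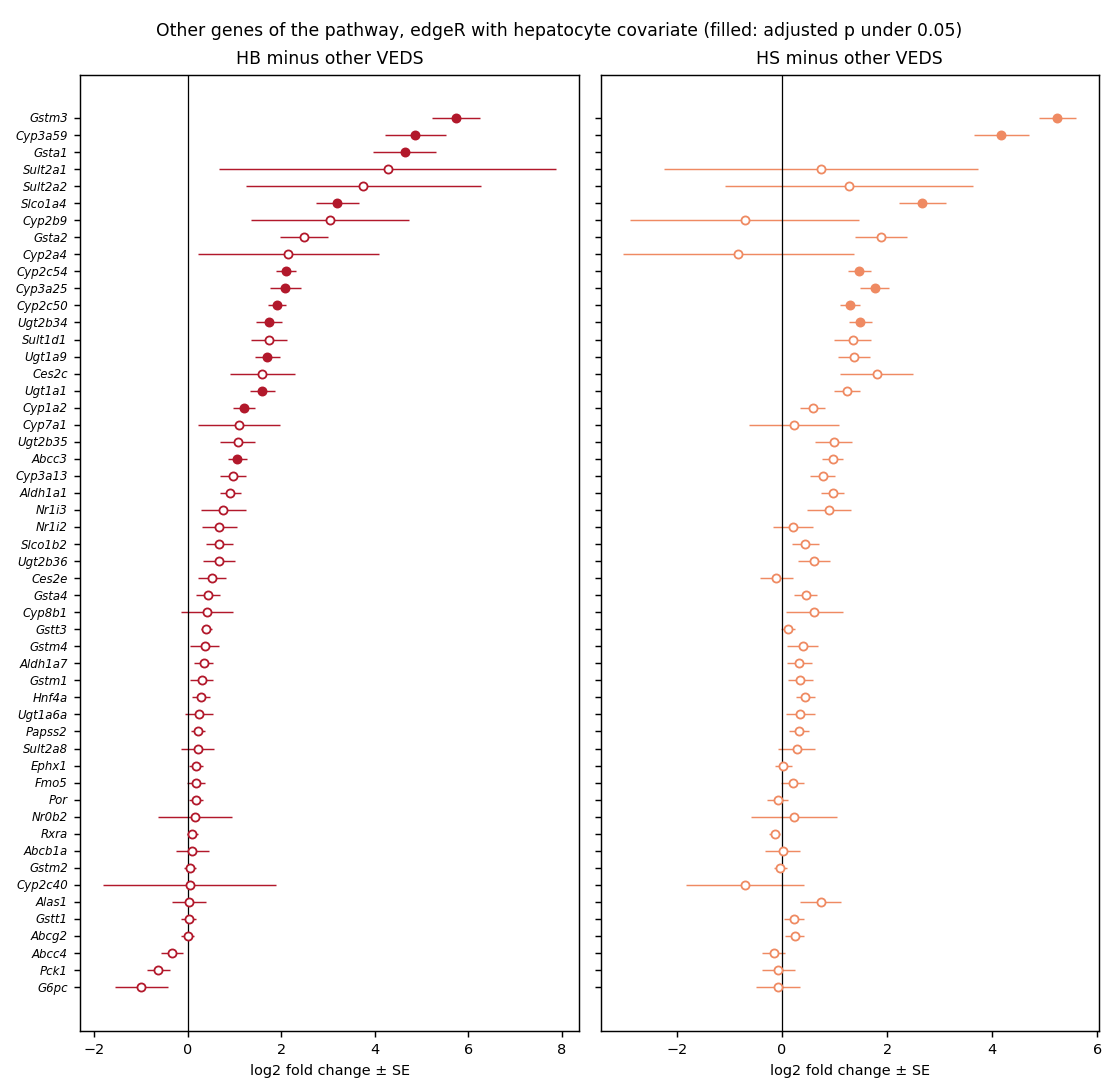
Log2 fold change ± SE of the other CAR and PXR pathway genes in HB and in HS against the other VEDS libraries, from edgeR with the hepatocyte score as a covariate; filled points have an adjusted p under 0.05. *Gstm3* lies furthest to the right, at 5.74 in HB and 5.24 in HS.

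The receptors were read at low levels. *Nr1i2* (PXR) averaged 1.84 ± 0.185 CPM in HB and 1.51 ± 0.968 CPM in HS (SD, n = 3 each), against 4.13 ± 2.95 CPM in the other VEDS aortas (SD, n = 12). *Nr1i3* (CAR) averaged 1.20 ± 0.185 CPM in HB and 1.72 ± 1.25 CPM in HS, against 4.21 ± 3.53 CPM. Per 1000 *Alb* counts the side turned: *Nr1i2* averaged 4.02 ± 0.416 in HB and 3.72 ± 1.94 in HS, against 2.00 ± 2.29 in the other VEDS aortas, and *Nr1i3* averaged 2.61 ± 0.275 in HB and 3.71 ± 1.02 in HS, against 1.36 ± 0.69. Neither passed the edgeR test in HB or HS, with or without the covariate. *Rxra*, their partner, stood at 96.7 ± 7.12 CPM in HB and 80.9 ± 12.6 CPM in HS, against 97.0 ± 13.5 CPM. *Por*, the reductase that feeds electrons to P450 enzymes, stood at 67.5 ± 5.89 CPM in HB and 61.3 ± 24.6 CPM in HS, against 58.9 ± 9.87 CPM. *Alas1*, which starts haem synthesis, stood at 50.6 ± 6.79 CPM in HB and 83.3 ± 77.2 CPM in HS, against 69.3 ± 43.0 CPM. None of these passed either (edgeR, with or without the covariate).

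Next, the 2 antagonist groups were compared with each other, which differ in compound, in dose and in the receptors blocked. No member passed the edgeR test between HB and HS, beside 0% of 12800 genes (855 genes at an unadjusted p under 0.05, and 35 genes with DESeq2). *Cyp2b10* was highest, at a log2 fold change of 0.67 ± 0.30 (edgeR adjusted p = 0.758), and the other members lay within 0.30 of 0. With the hepatocyte covariate again no member passed, beside 0.0781% of genes, and *Cyp3a11* stood at 0.32 ± 0.10 (edgeR adjusted p = 0.307). Per *Alb* count *Sult2a7* was higher in all 3 HB than in all 3 HS libraries, by 0.55 ± 0.09 on the log2 scale (exact permutation p = 0.1, two-sided, the smallest that 3 against 3 libraries allow, adjusted p = 0.675 over 27 tests). With 3 libraries per group and HS ranging from 462 to 5604 counts of *Cyp3a11*, a difference of the size of these standard errors was not detectable.

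Hydralazine and the genotype were tested in the 24 libraries without an antagonist, a comparison that the choice of genes did not use. *Cyp3a11* per *Alb* count was lower with hydralazine, whereas no member passed in a fit of the counts alone. It stood at 44.8 to 72.1 per 1000 *Alb* counts in hydralazine VEDS, with a median of 49.8, against 42.4 to 83.3 with a median of 67.8 in untreated VEDS. In controls it stood at 19.7 to 62.4 with a median of 37.8 under hydralazine, against 60.2 to 74.7 with a median of 67.0 untreated. The difference of mean log2 values was −0.55 ± 0.15 (SE, permutation p = 0.00068, two-sided, adjusted p = 0.0184 over 27 tests). Within genotypes it was −0.30 in VEDS (exact permutation p = 0.106, and −0.41 with p = 0.0216 without untreated VEDS replicate 1) and −0.79 in controls (exact permutation p = 0.00649, adjusted p = 0.052 over 18 tests), and the difference between genotypes was not tested. With the hepatocyte list sum in place of *Alb* the difference was −0.38 (permutation p = 0.0346, adjusted p = 0.45), which ended the call.

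*Cyp2b10* and *Cyp2a5* lay on the other side. *Cyp2b10* per *Alb* count was 0.88 ± 0.61 higher with hydralazine (permutation p = 0.166, adjusted p = 0.771 over 27 tests), and 1.41 ± 0.42 higher in CPM (log2 fold change, edgeR p = 0.00268, adjusted p = 0.226). Untreated control libraries held only 3 to 9 *Cyp2b10* counts each, 31 in all. Per *Alb* count in controls, all but 1 untreated library lay below all hydralazine libraries. The medians were 1.13 under hydralazine and 0.213 untreated (difference 2.09 on the log2 scale, exact permutation p = 0.00649, adjusted p = 0.052 over 18 tests). In VEDS the difference was −0.33 (exact permutation p = 0.74), and without untreated VEDS replicate 1 it turned to 0.42 (exact permutation p = 0.589). *Cyp2a5* per *Alb* count was 0.87 ± 0.33 higher (permutation p = 0.0168, adjusted p = 0.227), with 1.34 in VEDS (exact permutation p = 0.00866, adjusted p = 0.052 over 18 tests) and 0.39 in controls (exact permutation p = 0.496). In the edgeR fit none of the 7 members kept passed, beside 0.00746% of 13407 genes (1443 genes at an unadjusted p under 0.05), nor with the hepatocyte covariate, beside 0.0298%.

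For genotype, VEDS against control, none of the 7 members kept passed, beside 0% of 13407 genes both without and with the covariate (496 genes at an unadjusted p under 0.05 without it, 1 gene with DESeq2). The log2 fold changes of all 7 were positive without the covariate, between 0.32 and 0.75. The highest was *Cyp2b10* at 0.75 ± 0.42 (edgeR quasi-likelihood adjusted p = 1). *Sult2a7* and *Cyp2c55* were too low for this fit. No gene of the other-pathway list passed in the hydralazine or the genotype comparison or between HB and HS (edgeR with or without the covariate).

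Across all 30 libraries, the genes whose CPM followed that of *Cyp2b10* most closely by Spearman correlation, among 13810 genes, were *Cyp2c55* (0.7695), the mast cell proteases *Cma1* (0.7602) and *Mcpt4* (0.7442), *Slc24a4* (0.7437) and *Gstm3* (0.7419). *Cma1* averaged 7.23 ± 2.44 CPM in HB and 7.63 ± 1.86 CPM in HS (SD, n = 3 each), against 4.94 ± 1.77 CPM in hydralazine VEDS and 3.91 ± 1.01 CPM in untreated VEDS (SD, n = 6 each). *Cyp3a11* had rank 144, at 0.4999, and *Alb* rank 6861, at 0.0024. The correlations describe 30 libraries that share groups and are given without a test.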

How the data were processed

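RNA from the descending thoracic aorta was sequenced as stranded total RNA libraries, 1 per sample (30 samples in 6 groups, taken from the labels). Per the study's methods and the labels, reads were aligned with STAR and quantified with RSEM against mm39 (CASAVA 1.8.4 for base calls), with no pooling. The authors deposited per library the RSEM expected counts, of which 97.6% were whole numbers (tolerance 1e-06), and TPM values, which were used as deposited. Totals of 5517510 to 8293289 per library set the precision, and intervals cover counting error only. No 2 libraries were identical.

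Expected counts were rounded and fitted with edgeR 4.0.16 in R 4.3.3 (TMM, filterByExpr, quasi-likelihood F-test, Benjamini-Hochberg over all genes kept, threshold 0.05), which was tested on simulated data. CPM used TMM factors over 30 libraries. A second fit held the log2 summed CPM of 15 hepatocyte markers as a covariate, which is circular for that list. Counts per 1000 *Alb* counts were compared by two-sided permutation of mean log2 ratios with 0.5 added (100000 resamples, or exact), adjusted over 27 tests, with scipy 1.17.1. Where HB or HS were set against other VEDS libraries, no p is given for the 9 genes. These genes and all lists were chosen with earlier results of these data known. The genes named are the 9, *Alb* and the hepatocyte list, *Nr1i2*, *Nr1i3*, *Rxra*, *Por* and *Alas1*, up to 10 genes of the other-pathway list with the smallest p past the threshold in each comparison, and the 5 genes closest to *Cyp2b10* by Spearman correlation, and marker genes of other cell types were read beside them. Alternatives were DESeq2 1.42.0, other size factors, no count filter, 1 fit of all libraries, the hepatocyte covariate or sum, a pseudocount of 1 and each library left out. The study's methods state that aortas were homogenised in randomised batches with 1 aorta per group. The labels do not give the batch of a library, so no fit or permutation used it, and p-values measure the spread between libraries.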

Additional observations from a re-analysis of the deposited data

Results flagged for a closer look

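Of 68 sets of 6 libraries examined for a value far from its neighbours, 9 held one. The rule flags about 5% by chance for independent, normally spread values. These sets reuse the same libraries by CPM and per *Alb* count, so that rate is a guide only. *Cyp2b10* per 1000 *Alb* counts was 12.1 in untreated VEDS replicate 1 (next 2.32) and 0.838 in untreated control replicate 1 (next 0.348), and *Cyp3a11* per 1000 *Alb* counts was 72.1 in hydralazine VEDS replicate 6 (next 53.9). Hydralazine control replicate 3 had 315 CPM of *Cyp3a11* (next 100.0) and 163 CPM of *Cyp2c29* (next 55.2). *Cyp2c55* had 3.67 CPM in untreated VEDS replicate 4 (next 0.993), and *Cyp2a5* had 90.4 CPM in hydralazine VEDS replicate 4 (next 36.4). *Sult2a7* had 0.171 CPM and 0.032 per 1000 *Alb* counts in hydralazine VEDS replicate 3, which is a single count among libraries at 0.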

How the results depend on the processing

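The count of genes called moved with the tool, the covariate, the libraries fitted and single libraries. In HB against other VEDS (81 genes) DESeq2 called 458, the covariate fit 49 and the fit without the 3 libraries that stood apart, chosen after seeing the data, 3. In HS against other VEDS (4 genes) these were 252, 41 and 1, and 1 fit of all 30 libraries called 101. In HB against hydralazine VEDS (2 genes) DESeq2 called 575, the covariate fit 42, the fit without the 3 libraries 1 and the fit of all 30 libraries 1. In HS against hydralazine VEDS (0 genes) DESeq2 called 54, the covariate fit 18 and the fit of all libraries 2. Between HB and HS (0 genes) DESeq2 called 35 and the covariate fit 10. For VEDS against control (0 genes) DESeq2 and the fit of all libraries each called 1, and for hydralazine (1 gene) DESeq2 called 59, the covariate fit 4 and the fit of all libraries 2. The cause was not tested. With the hepatocyte sum in place of *Alb*, 0 members passed for hydralazine.

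Leaving out 1 library at a time gave 2 to 286 genes in HB against other VEDS (2 without HB replicate 2, 286 without untreated VEDS replicate 1), 1 to 65 in HS against other VEDS, 1 to 56 in HB and 0 to 0 in HS against hydralazine VEDS, 0 to 2 between HB and HS, 0 to 4 for genotype and 0 to 7 for hydralazine. Members above all other VEDS libraries per *Alb* count numbered 8 to 9 in HB and 7 to 9 in HS, and 1 to 2 passed for hydralazine. With all libraries the share over all genes above was 0.615% in HB and 0.471% in HS. All 9 members were above in both groups without untreated VEDS replicate 1, but so were 80.2% of all genes in HB and 5.68% in HS, so nothing is read from that count.

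With the covariate the log2 fold change between HB and HS turned to 0.32 for *Cyp3a11*, 0.28 for *Cyp2c29*, 0.07 for *Cyp2c37* and *Abcc2*, 0.17 for *Cyp2a5* and 0.34 for *Ces2a*, and for hydralazine to 0.18 for *Cyp2c29* and 0.22 for *Cyp2c37*. With the hepatocyte sum the log2 difference turned to −0.02 for *Cyp2c29* and −0.05 for *Sult2a7* (VEDS against control), to 0.14 for *Cyp2c55* and 0.02 for *Abcc2* (hydralazine) and to 0.01 for *Cyp2c37* (HB against HS). None of these passed a test. Without 1 library, directions turned in the log2 fold change between HB and HS, with ranges of −0.41 to 0.59 for *Abcc2*, −0.62 to 0.99 for *Ces2a*, −0.45 to 1.20 for *Cyp2a5*, −0.63 to 0.96 for *Cyp2c29*, −0.68 to 0.84 for *Cyp2c37*, −0.51 to 1.28 for *Cyp2c55*, −0.64 to 1.00 for *Cyp3a11* and −0.22 to 1.28 for *Sult2a7*; for hydralazine they were −0.50 to 0.11 for *Cyp2c29* and −0.34 to 0.10 for *Cyp2c37*, and for VEDS against control −0.00 to 0.68 for *Cyp3a11*. Per *Alb* count they were, between HB and HS, −0.38 to 0.25 for *Abcc2*, −0.38 to 0.55 for *Cyp2a5*, −0.27 to 1.61 for *Cyp2b10* and −0.32 to 0.25 for *Cyp2c37*, for VEDS against control −0.03 to 0.27 for *Cyp2a5*, −0.04 to 0.14 for *Cyp2c29* and −0.45 to 0.26 for *Sult2a7*, and for hydralazine −0.09 to 0.24 for *Cyp2c37*, −0.23 to 0.21 for *Cyp2c55* and −0.55 to 0.17 for *Sult2a7*. Within VEDS, without untreated VEDS replicate 1, chosen after seeing the data, the hydralazine difference turned to 0.42 for *Cyp2b10* and 0.19 for *Abcc2*.

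No paired analysis was possible because the labels give no replicate numbers that match across groups. Ages and batches of single libraries were not given, each antagonist group has 3 libraries, and low *Alb* counts limit the ratios in HS replicate 3 and untreated VEDS replicate 1.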
